A study of Mus musculus with 15 samples.

Results

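The mannose receptor family was described here through its 4 genes, *Mrc1*, *Mrc2*, *Pla2r1* and *Ly75*, found by matching the Ensembl identifiers of the raw count matrix to these symbols. All 4 were among the 53465 genes of the matrix, and 3 of them were among the 13938 genes that passed the filter on low counts. *Mrc2* did not pass it, so it is given by its counts. The libraries came from bone marrow-derived macrophages (BMDMs), which are bone marrow cells matured in culture with M-CSF, the growth factor of the macrophage lineage. By the study's methods the marrow was taken from mice of a knock-in reporter line aged 8 to 12 weeks, and the cells were grown for 7 days in 10% FBS with 20 ng/ml M-CSF. All groups, the control included, share this genotype and culture. There were 5 groups of 3 libraries, each harvested after 24 h: an untreated control, IL-4 (10 ng/ml), IL-4 with IL-6 (40 ng/ml), written IL-4/IL-6, IL-13 (40 ng/ml), and IL-13 with IL-6, written IL-13/IL-6. The study calls its RNA-seq samples of IL-4 and IL-4/IL-6 biological replicates, and states in general that its data rest on 3 or more independent experiments. The sources used here do not say whether the 3 libraries of a group came from separate mice or separate cultures, so p-values measure the spread between these libraries. The doses of IL-4 and IL-13 differ if IL-13 was used here as in the qPCR experiments. No library with IL-6 alone was analysed here.

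Proteins of this family are large membrane receptors with a row of C-type lectin-like domains, and they cycle between the cell surface and early endosomes through clathrin-coated pits. MRC1 (CD206) binds mannose-ended sugars on microbes and on the body's own glycoproteins, and in macrophages it is a long-used mark of IL-4 and IL-13 activation. LY75 (DEC-205) takes up antigen in dendritic cells and thymic epithelium. MRC2 (Endo180) takes up collagen for breakdown, mainly in fibroblasts, and PLA2R1 binds secreted phospholipases A2 and is best known from kidney podocytes.

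In the GENCODE M21 annotation of GRCm38, *Mrc1* (ENSMUSG00000026712) lies at chr2:14229392-14332057 on the plus strand, with 30 exons in its longest coding transcript. *Ly75* (ENSMUSG00000026980) lies at chr2:60292103-60383303 and *Pla2r1* (ENSMUSG00000054580) at chr2:60417543-60553308, both on the minus strand. They are neighbours, 34239 bp apart with 0 protein-coding genes between them. *Mrc2* (ENSMUSG00000020695) lies on another chromosome, at chr11:105292643-105351139 on the plus strand. The members can be told apart in sequencing reads: the longest identical stretch between the longest coding transcripts of any pair of members was 19 bp. None of the 50 bp windows of the *Mrc1* and *Mrc2* transcripts occurred in a transcript of another gene, against 3.54% of those of *Pla2r1* and 2.204% of those of *Ly75*, which overlap the antisense genes *Gm13583* and *Gm13571*.

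The stretches just before the starts of *Mrc1* and *Ly75* are shown because these members moved in opposite directions. They are RefSeq promoter sequences of GRCm38.p6, cut where transcribed sequence of the annotation begins, and the capitals in *Mrc1* mark the letters CTTCCTC, which read GAGGAAG, a core motif of the macrophage factor PU.1, on the other strand.
Mrc1, chr2:14229164-14229391, plus strand: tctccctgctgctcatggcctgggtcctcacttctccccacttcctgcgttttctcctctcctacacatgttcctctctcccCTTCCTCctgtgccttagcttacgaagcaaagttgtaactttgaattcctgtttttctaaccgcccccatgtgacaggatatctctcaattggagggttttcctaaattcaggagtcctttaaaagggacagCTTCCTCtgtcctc
Ly75, chr2:60383304-60383523, minus strand: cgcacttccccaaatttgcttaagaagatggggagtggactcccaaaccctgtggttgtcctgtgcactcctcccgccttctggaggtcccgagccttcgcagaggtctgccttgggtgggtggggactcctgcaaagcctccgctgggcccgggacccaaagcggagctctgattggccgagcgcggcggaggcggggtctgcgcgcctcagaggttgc

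The letters of 5 factors were searched on both strands of the 250 bases before the RefSeq start: GAGGAAG for PU.1, the STAT6 palindrome with a spacer of any 4 bases, TTCNNNGAA for STAT3, TGANTCA for AP-1 and TTGCNNCAA for C/EBP. The STAT6 and STAT3 motifs share their outer letters, TTC and GAA, and differ in the spacer. *Mrc1* held GAGGAAG at 168 and 36 bases before the start and none of the other letters, *Ly75* held none, and *Pla2r1* held TTGCAGCAA at 187 bases before its start. Among 32851 promoters of the same length, GAGGAAG was found in 10.6%, the STAT6 letters in 5.85%, the STAT3 letters in 7.02%, the AP-1 letters in 6.75% and the C/EBP letters in 1.74%. These matches describe the letters only.

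Total counts ran from 17001352 to 18918686 per library, so depth differed little between groups. Replicates were closest in the control and IL-4 groups, with a biological coefficient of variation of 4.48% and 4.54%, and least close in IL-4/IL-6 at 14.8%. All 8 macrophage markers were above 3 counts in every library, with a summed level between 10900 and 21114 CPM, which is counts relative to the library's total after TMM scaling. This sum, mostly *Lyz2*, was 18935 to 21114 CPM in control and 10900 to 12704 with IL-4/IL-6, the lowest group. With IL-4/IL-6 over control 3 of the 8 were higher and 5 lower, against 35.4% and 37.5% of all genes. Between these groups *Mertk* went from 142.5 to 12.7 CPM, *Cd14* from 291.7 to 46.5 and *Adgre1* from 844.2 to 1288. The 3 control libraries stood apart by markers of other cells. Granulocyte and precursor markers summed to between 460.2 and 546.8 CPM in control and to at most 2.14 in the treated libraries, stromal markers to between 16.8 and 21.5 against at most 0.482, B and T cell markers to between 35.0 and 39.9 against at most 1.87, and basophil and mast cell markers to between 22.4 and 27.1 against at most 8.55. Of the B and T cell sum in control, *Cd4* made up 27.1 CPM on average and the B cell gene *Cd79b* 5.69. The T cell gene *Cd3e* had 0 counts in every library, and *Cd3d* and *Cd8a* had at most 4. *Kit* made up 12.2 CPM of the basophil and mast cell sum in control. Each comparison with control below therefore also compares libraries high and low in these markers of other cells. The part of these markers in the members' changes was not tested. In bulk RNA, fewer cells of a type and less RNA per cell cannot be told apart. The comparisons among the treated groups do not use the control libraries as a reference, and a fit without them, chosen after seeing the data, is given beside the IL-6 effects on *Mrc1* and *Ly75*.

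**Figure D1:**
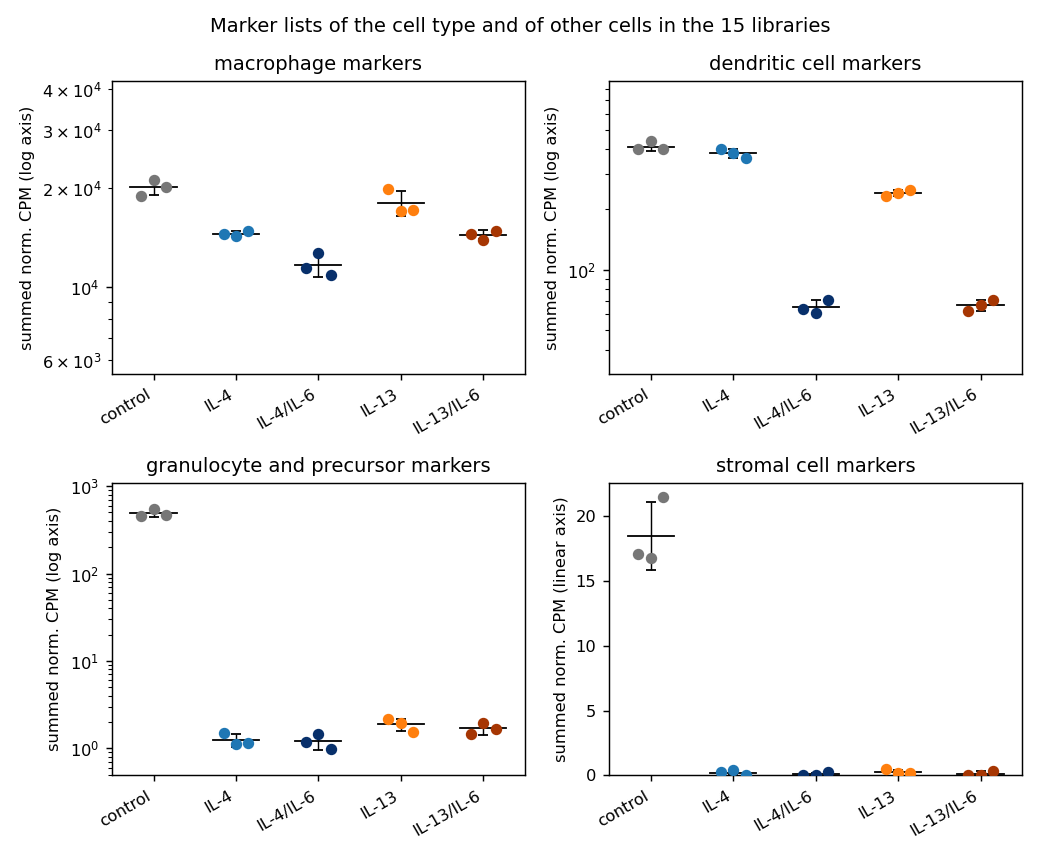
Summed normalized CPM of 4 marker lists in the 15 libraries by group, on log axes except for the stromal list (points, libraries; lines, mean; bars, SD, n = 3). Granulocyte and stromal markers were at 460.2 CPM or more and 16.8 CPM or more in the control libraries and at most 2.14 and 0.482 CPM in all others, and dendritic cell markers were lowest in both groups given IL-6.

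*Mrc1* dominated the family in every group. Set side by side by the deposited FPKM, which is per transcript length, *Mrc1* was at 32.2 ± 0.783 in control (SD, n = 3), *Ly75* at 4.11 ± 0.223, *Mrc2* at 0.0536 ± 0.0175 and *Pla2r1* at 0.0376 ± 0.00462. *Mrc1* thus made up 88.5% ± 0.502 of the family's summed FPKM in control and *Ly75* 11.3% ± 0.513. In the treated groups the share of *Mrc1* was 99.8% ± 0.00446 with IL-4, 99.6% ± 0.0715 with IL-13, 99.99% ± 0.00369 with IL-4/IL-6 and 99.98% ± 0.0122 with IL-13/IL-6. The ratio of *Mrc1* to *Ly75* FPKM went from 7.85 ± 0.391 in control to 753.4 ± 26.5 with IL-4 and 316.0 ± 83.5 with IL-13. With IL-6 added it was at least 6658 in every library, and its spread there was wide because *Ly75* rested on between 2 and 19 counts. *Pla2r1* and *Mrc2* were close in control and parted in the treated groups, where *Mrc2* had at most 1 count per library and *Pla2r1* kept between 4 and 24.

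**Figure D2:**
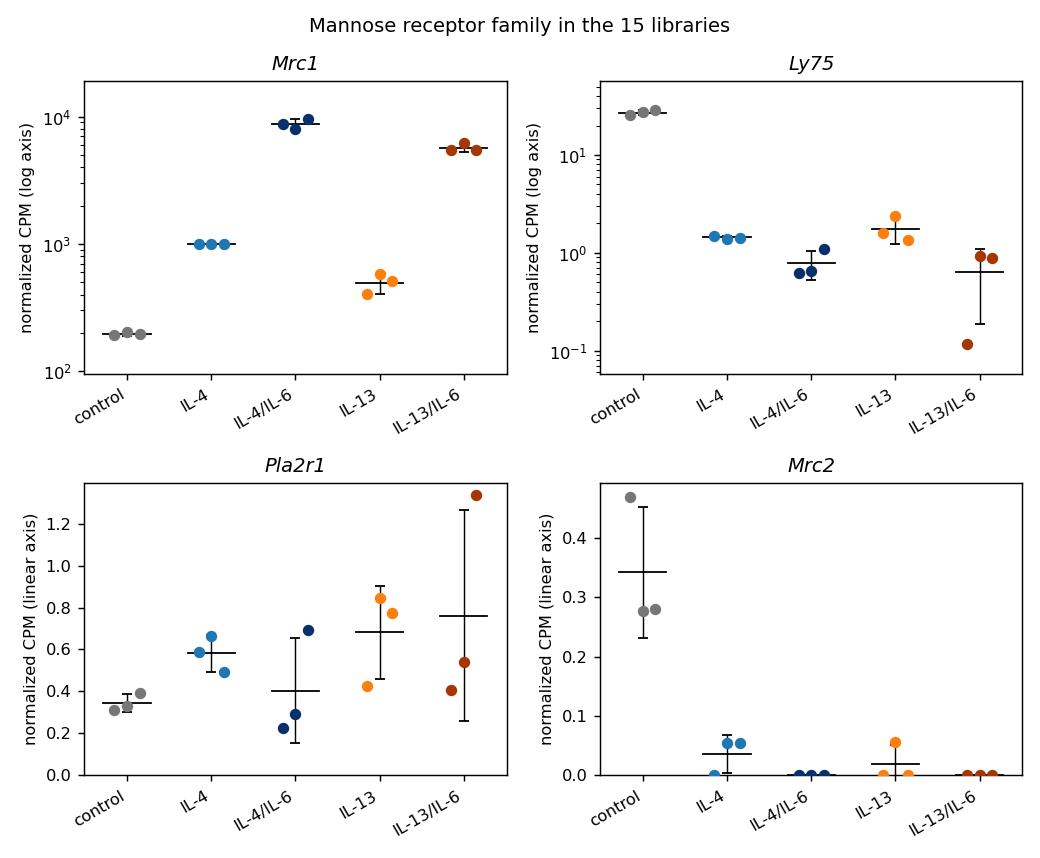
Normalized CPM of the 4 members in each of the 15 libraries, by group, on log axes for Mrc1 and Ly75 and linear axes for Pla2r1 and Mrc2 (points, libraries; lines, mean; bars, SD, n = 3). Mrc1 was lowest and Ly75 and Mrc2 were highest in the control libraries, and the treated groups of Pla2r1 overlapped each other.

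*Mrc1*, the mannose-binding member, rose with each cytokine and rose again when IL-6 was added. Its normalized CPM was 190.9, 203.5 and 195.0 in the control libraries and 1002, 992.5 and 992.4 in the IL-4 libraries. With IL-13 it was 401.5, 577.8 and 509.7. With IL-4/IL-6 it was 8683, 7943 and 9526, and with IL-13/IL-6 it was 5484, 6194 and 5468. No library of any group reached into the range of another, and the order was control, IL-13, IL-4, IL-13/IL-6 and IL-4/IL-6 from lowest to highest. *Mrc1* was the gene ranked between 1516 and 1594 by FPKM in the control libraries, between 311 and 323 with IL-4, between 475 and 833 with IL-13, between 20 and 32 with IL-4/IL-6 and between 30 and 35 with IL-13/IL-6. In the IL-4/IL-6 libraries it took between 0.712% and 0.932% of all counts.

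IL-4 raised *Mrc1* 5.07-fold over control, a log2 fold change of 2.34 (SE, the standard error, 0.105; adjusted p = 4.89e-12, from the quasi-likelihood F test of edgeR, with the p-values of all tested genes adjusted by the Benjamini-Hochberg method). In this comparison 68.0% of tested genes were called at an adjusted p under 0.05, 32.1% higher and 35.9% lower. IL-13 raised *Mrc1* by less, 2.53-fold or 1.34 on the log2 scale (SE 0.102, adjusted p = 6.16e-09, edgeR), where 60.1% of genes were called, 29.0% higher and 31.1% lower. The IL-4 level was 2.01-fold that of IL-13, a log2 difference of 1.00 (SE 0.101, adjusted p = 2.27e-06, edgeR, with 12.8% of genes called, 5.16% higher and 7.61% lower). The doses of these cytokines are not known to match.

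Adding IL-6 to IL-4 raised *Mrc1* a further 8.75-fold, a log2 fold change of 3.13 (SE 0.108, adjusted p = 3.37e-13, edgeR). In that comparison 39.4% of genes were called, 20.7% higher and 18.7% lower, and *Mrc1* ranked 95th of 13938 from the most raised. Adding IL-6 to IL-13 raised it 11.5-fold, or 3.53 on the log2 scale (SE 0.110, adjusted p = 2.94e-13, edgeR), with 25.6% of genes called (12.1% higher and 13.5% lower) and *Mrc1* ranked 44th. In the fit without the control libraries these log2 fold changes were 3.12 and 3.52. Against control the combinations stood 44.4-fold and 29.1-fold higher, log2 fold changes of 5.47 and 4.86 (SEs 0.121 and 0.117, adjusted p = 3.94e-16 and 2.4e-15, edgeR), with 72.9% and 64.0% of genes called. The level in IL-4/IL-6 remained above that in IL-13/IL-6 by 1.53-fold, 0.61 on the log2 scale (SE 0.0998, adjusted p = 0.00016, edgeR, with 31.3% of genes called).

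The effect of IL-6 on *Mrc1* was smaller with IL-4 than with IL-13 by 0.40 on the log2 scale, but this difference did not pass the adjusted threshold. The interaction was -0.40 (SE 0.141, 95% confidence interval -0.69 to -0.10, unadjusted p = 0.0123, adjusted p = 0.112, edgeR), in a test that called 7.64% of genes, 3.22% higher and 4.42% lower. It passed at an adjusted p of 0.000101 when no filter on low counts was used, at 0.0424 without IL-4/IL-6 replicate 3 (-0.48) and at 0.0196 without IL-13 replicate 2 (-0.52). Over all the alternatives run, its adjusted p ranged from 0.000101 to 0.238.

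The tested genes with the pattern most like *Mrc1* over the 15 libraries were *Timp1*, *Nrcam*, *Slc9a2*, *Eps8* and *Fn1*, by the root mean square difference of log2 CPM after each gene was centred on its own mean. The closest, *Timp1*, which encodes an inhibitor of matrix metalloproteinases, differed from *Mrc1* by 0.35 log2 units. Its mean was 1.18 CPM in control, 8.43 with IL-4, 63.6 with IL-4/IL-6, 3.88 with IL-13 and 45.6 with IL-13/IL-6, the same order of groups as *Mrc1*. *Fn1*, which encodes the matrix protein fibronectin, differed by 0.56, at 50.5, 501.6, 2080, 262.1 and 1346 CPM in that order of groups.

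An intron of *Mrc1* carries the gene *Mir511*, whose mature miR-511-3p is printed because it lies inside the member that rose with IL-6. The sequence is that of RefSeq on GRCm38.p6, at chr2:14261051-14261072 on the plus strand, with the seed, bases 2 to 8, in capitals.
mmu-miR-511-3p: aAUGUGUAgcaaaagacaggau

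The libraries were not made for small RNA, and *Mir511* had 5, 2 and 0 counts in the IL-4/IL-6 libraries and 0, 2 and 0 in the IL-13/IL-6 libraries. It had 0 in the other 9 libraries, so it had counts only where the host gene was highest, and these few counts cannot be told apart from reads of the *Mrc1* transcript before splicing. Of the genes beside *Mrc1*, *Slc39a12*, which encodes a zinc transporter and starts 56258 bp downstream on the same strand, passed the filter on low counts only through groups in which it was high, and is given by its levels with no test. Its mean was 0.274 ± 0.0623 CPM in control, 0.547 ± 0.206 with IL-4 and 9.16 ± 0.450 with IL-4/IL-6 (SD, n = 3). With IL-13 it was 0.290 ± 0.227 and with IL-13/IL-6 5.10 ± 0.993. *Stam*, which encodes an endosomal sorting protein and lies upstream of *Mrc1*, had between 603 and 711 counts in every library and was called in none of the 9 comparisons. *Tmem236*, between *Stam* and *Mrc1*, had at most 9 counts in any library. *Cacnb2*, a calcium channel subunit gene farther downstream, had at most 30 counts in any library and likewise gets no test.

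**Figure D3:**
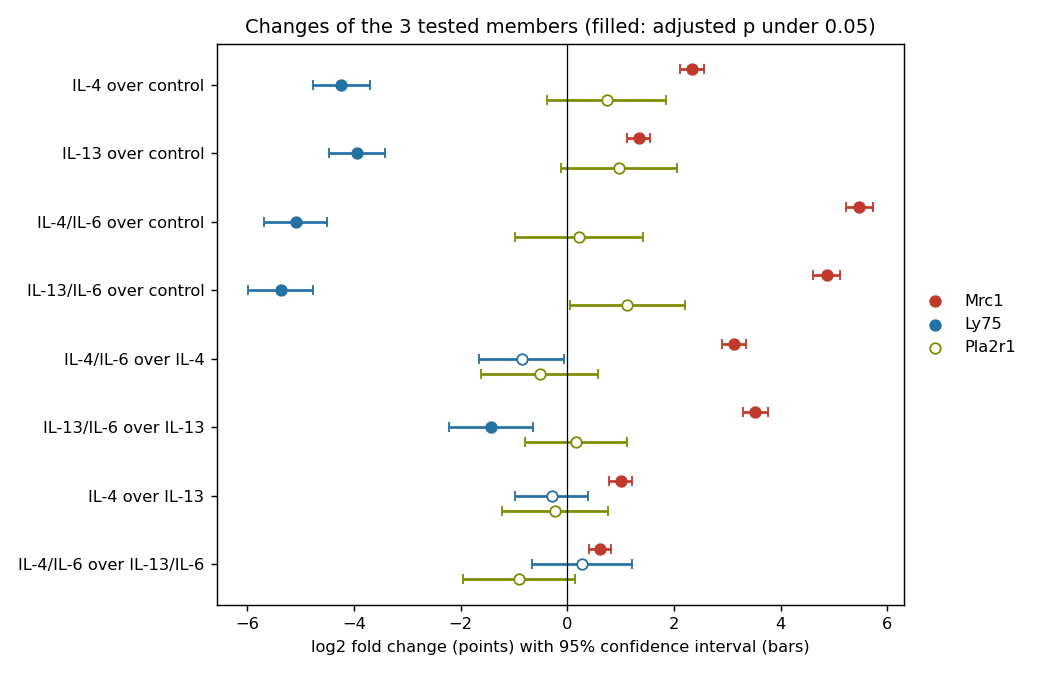
Log2 fold changes of the 3 tested members in 8 comparisons with 95% confidence intervals (edgeR, 3 libraries per group). Mrc1 (red) was higher in all 8 comparisons, Ly75 (blue) was lower in the 4 comparisons over control and in IL-13/IL-6 over IL-13, and Pla2r1 (open green) passed the threshold in none.

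*Ly75*, the antigen uptake receptor of dendritic cells, moved the other way, falling steeply with either cytokine. The control libraries had 491, 493 and 509 counts, or 25.6, 27.3 and 28.6 CPM. The IL-4 libraries had 28, 25 and 26 counts and the IL-13 libraries 30, 42 and 26. With IL-4/IL-6 there were 11, 11 and 19 counts, and with IL-13/IL-6 there were 2, 17 and 16. Every treated library was far below every control library, IL-4 and IL-13 overlapped, and so did the combinations.

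The mean level of *Ly75* went from 27.2 ± 1.49 CPM in control to 1.43 ± 0.0587 with IL-4 and 1.77 ± 0.532 with IL-13 (SD, n = 3). This was 18.8-fold and 15.4-fold lower, log2 fold changes of -4.24 (SE 0.254, adjusted p = 1.92e-10, edgeR) and -3.94 (SE 0.246, adjusted p = 4.5e-10, edgeR). IL-4 and IL-13 were not shown to differ, at -0.29 on the log2 scale (95% confidence interval -0.97 to 0.38, adjusted p = 0.592, edgeR). With IL-4/IL-6 and IL-13/IL-6 *Ly75* was at 0.789 ± 0.265 and 0.643 ± 0.457 CPM, 34.1-fold and 41.3-fold below control (adjusted p = 3.8e-11 and 4.21e-11, edgeR), where 37.5% and 32.1% of genes were lower. The combinations were also not shown to differ, at 0.28 (95% confidence interval -0.66 to 1.21, adjusted p = 0.68, edgeR).

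IL-6 lowered *Ly75* further on top of IL-13, by a log2 fold change of -1.43 (SE 0.375, adjusted p = 0.00859, edgeR). Without IL-13/IL-6 replicate 1, the library with 2 counts, the value was -0.96 (adjusted p = 0.0484). On top of IL-4 the value was -0.86 (SE 0.377, adjusted p = 0.0831, edgeR), which did not pass. It passed at an adjusted p of 0.0364 without IL-4/IL-6 replicate 3 (-1.18), and also under DESeq2 (0.0315), with no filter (0.0159) and in a fit of the 9 libraries of the IL-4 arm and control (0.0113). The IL-6 effects with IL-4 and with IL-13 were not shown to differ (interaction 0.57, 95% confidence interval -0.58 to 1.72, adjusted p = 0.682, edgeR). In the fit without the control libraries the IL-6 effects on *Ly75* were -0.87 (adjusted p = 0.146) and -1.44 (adjusted p = 0.0304).

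Dendritic cell markers moved with *Ly75* in part. Their summed level was between 397.7 and 435.9 CPM in control and between 360.8 and 399.8 with IL-4, then between 232.0 and 248.5 with IL-13 and between 60.7 and 70.9 with IL-6 added to either. Most of this sum was *Itgax* (CD11c), a marker that macrophages also express, at 289.4 CPM in control, 332.4 with IL-4, 202.2 with IL-13, 52.0 with IL-4/IL-6 and 58.2 with IL-13/IL-6. Of the 8 dendritic cell markers 7 passed the filter on low counts, *Flt3*, *Ccr7* and *Siglech* only through the control libraries, so no count is drawn from them. *Batf3*, a dendritic cell transcription factor gene, went from 3.60 CPM in control to 18.6 with IL-4, while *Cd24a* went from 96.4 to 28.8 and *Ccr7*, a migration receptor gene, from 8.42 to 0.0182. *Zbtb46*, with at most 19 counts in any library, was at 0.739 CPM in control, 0.509 with IL-4 and 0.614 with IL-4/IL-6. It was at 0.143 with IL-13 and 0.186 with IL-13/IL-6. *Xcr1*, with at most 11 counts, was at 0.351 CPM in control and at most 0.226 in the treated groups. *Flt3*, a receptor of dendritic cells and their precursors, was at 6.38 CPM in control and at 0 counts in all libraries given IL-4, with or without IL-6, and *Siglech*, a plasmacytoid dendritic cell marker, was at 5.48 CPM in control and at 0 counts in every treated library. The part of dendritic cells in the level of *Ly75* was not tested.

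*Gm13571*, the antisense gene within *Ly75*, had 12, 6 and 6 counts in control and at most 2 elsewhere. How strand was used in counting is not given in the sources used here, so these reads could belong to either gene. *Cd302*, a further C-type lectin gene 7614 bp downstream of *Ly75* on the same strand, also fell with both cytokines, from 72.6 ± 8.17 CPM to 23.7 ± 1.75 with IL-4 (log2 fold change -1.61, SE 0.102, adjusted p = 3.68e-10, edgeR) and 29.6 ± 1.97 with IL-13 (-1.29, adjusted p = 7.04e-09, edgeR). It was higher with IL-6, by 0.29 over IL-4 (adjusted p = 0.0367, edgeR) and 0.35 over IL-13 (adjusted p = 0.0166, edgeR). The tested genes most like *Ly75* were *Ache*, *Bex1*, *Mgll*, *Ypel2* and *Fbxo32*, each highest in control. *Ache*, which encodes acetylcholinesterase, differed from it by 0.48 log2 units and had a mean of 12.1 CPM in control and between 0.165 and 0.377 in the treated groups. *Mgll*, which encodes monoacylglycerol lipase, differed by 0.55 and went from 124.0 CPM in control to 9.31 with IL-4, 8.97 with IL-13, 4.02 with IL-4/IL-6 and 4.33 with IL-13/IL-6.

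*Mrc2*, the collagen receptor, was barely detected and mainly in control. Its counts were 9, 5 and 5 in the control libraries, 0, 1 and 1 with IL-4, 0, 1 and 0 with IL-13, and 0 in all 6 libraries given IL-6. The control libraries were above every treated library. Summed over the group and scaled for depth, control was 9.50 times IL-4 (95% exact interval 2.29 to 84.1) and 19.3 times IL-13 (3.06 to 801). IL-4/IL-6 was at least 5.98-fold lower than control and IL-13/IL-6 at least 6.18-fold lower, with 3 counts over the group as the upper limit that a count of 0 allows. The exact 95% intervals, which also take in the counting error of the 19 control counts, start at 4.40 and 4.55. These intervals and limits cover counting error only. In an edgeR fit with no filter on low counts the adjusted p was 0.0721 for IL-4 over control, 0.0322 for IL-13, 0.00534 for IL-4/IL-6 and 0.00582 for IL-13/IL-6, in comparisons where 19.7%, 16.8%, 21.5% and 17.9% of the 25254 genes fitted were called lower. The call for IL-13 was lost without any of 5 libraries, control replicates 1, 2 and 3 and IL-13 replicates 1 and 3, at an adjusted p between 0.0575 and 0.118.

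Markers of stromal cells, in which *Mrc2* is well known, were also highest in the control libraries. *Col1a1* and *Col1a2*, the genes of type I collagen, had between 155 and 185 and between 104 and 156 counts in the control libraries. *Col1a1* had 0 counts in every treated library and *Col1a2* at most 1. The part of stromal cells in the level of *Mrc2* was not tested, and the treated libraries, with at most 1 count each, give no measurable level of *Mrc2*. Of its coding neighbours, *Tlk2*, a chromatin kinase gene, had between 535 and 692 counts in every library, was not called for IL-4 over control (-0.11, adjusted p = 0.272, edgeR) and rose slightly with IL-6 over IL-4 (0.23, adjusted p = 0.043, edgeR) and over IL-13 (0.24, adjusted p = 0.0461, edgeR). *Tanc2*, a scaffold protein gene, had between 361 and 2748 and rose with IL-4 over control (1.45, SE 0.165, adjusted p = 7.02e-07, edgeR), was not called for IL-13 over control (0.31, adjusted p = 0.118, edgeR), and rose with IL-6 over IL-4 (1.13) and over IL-13 (1.48). *March10*, a ubiquitin ligase gene, had at most 16 counts in any library, with means of 0.148 CPM in control, 0.143 with IL-4, 0 with IL-13, 0.828 with IL-4/IL-6 and 0.334 with IL-13/IL-6, and *Gm10842* had 0 counts.

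*Pla2r1*, the phospholipase receptor, was low in all groups and was called in none of the 9 comparisons. Its counts were 6, 6 and 7 in control, 11, 12 and 9 with IL-4, 8, 15 and 15 with IL-13, 4, 5 and 12 with IL-4/IL-6, and 7, 10 and 24 with IL-13/IL-6. By CPM every IL-4, IL-13 and IL-13/IL-6 library was above the control libraries, from 0.405 CPM against at most 0.393, while the IL-4/IL-6 libraries lay on both sides of them. The widest spread was in IL-13/IL-6, at 0.761 ± 0.502 CPM, where replicate 3 had 24 of the 41 counts.

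No control library had more than 7 counts of *Pla2r1*, so the gene passed the filter on low counts only through treated libraries. The tests over control given here therefore support no rise. For *Pla2r1*, IL-4 over control had a log2 fold change of 0.74 (95% confidence interval -0.37 to 1.85, adjusted p = 0.223, edgeR) and IL-13 over control 0.97 (-0.12 to 2.05, adjusted p = 0.115, edgeR). IL-13/IL-6 over control was 1.13 (0.06 to 2.2, adjusted p = 0.0613, edgeR), and it passed at 0.0244 without IL-13/IL-6 replicate 1 (1.45) and at 0.0469 without replicate 2 (1.33). Without IL-13/IL-6 replicate 3, the library with 24 counts, the value was 0.48 (adjusted p = 0.45, edgeR). Adding IL-6 gave -0.52 over IL-4 (-1.61 to 0.58, adjusted p = 0.466, edgeR) and 0.16 over IL-13 (-0.80 to 1.12, adjusted p = 0.852, edgeR). The last of these turned to -0.52 without IL-13/IL-6 replicate 3 and to -0.09 without IL-13 replicate 1. IL-4/IL-6 over IL-13/IL-6 was -0.90 (-1.96 to 0.15, adjusted p = 0.185, edgeR) and passed at 0.0495 without IL-4/IL-6 replicate 3 (-1.54). The intervals over control all reached past 1.34, the log2 fold change of *Mrc1* with IL-13, so a rise of that size lies within them. The genes most like *Pla2r1* in pattern were *Cmpk2*, *Gm12250*, *Xaf1*, *Ifi204* and *Dhx58*. *Cmpk2*, a mitochondrial nucleotide kinase gene known from interferon responses, differed from it by 0.24 log2 units, with means of 10.8 CPM in control, 13.7 with IL-4, 9.83 with IL-4/IL-6, 19.2 with IL-13 and 22.02 with IL-13/IL-6. *Itgb6*, the integrin gene next to *Pla2r1*, had 0 counts in every library, and *Rbms1*, an RNA-binding protein gene beyond it, had between 2545 and 7006 and rose with IL-6 over IL-4 (0.77, SE 0.0620, adjusted p = 1.95e-08, edgeR). With so few counts, the prior count of 2 used in this measure flattens the pattern of *Pla2r1*.

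The partners of the family were described through lists of possible ligands, of the uptake route and of related genes. Of 11 genes of secreted phospholipases A2, a family that holds ligands of PLA2R1, 3 passed the filter on low counts, *Pla2g5* only through the groups in which it was high, so no count is drawn from them. Which of the 11 bind PLA2R1 was not tested. *Pla2g5* was at 0.105 CPM in control and 10.9 with IL-4, given as levels with no test over control. *Pla2g2d*, filtered out, lay the other way, at 0.362 CPM in control and at most 0.0178 in the treated groups. *Pla2g3* and *Pla2g10*, also filtered out, were at 0.163 and 0.0739 CPM in control and at most 0.111 and 0.0369 in the treated groups. With IL-4 *Pla2g2e* rose by 2.1 (SE 0.278) and *Pla2g12a* by 1.62 (SE 0.155). *Pla2g5* and *Pla2g12a* rose further with IL-6, *Pla2g5* by 0.64 over IL-4 and 0.92 over IL-13 and *Pla2g12a* by 0.57 and 0.48. *Pla2g2e* was not called with IL-6 (0.14 over IL-4, adjusted p = 0.677, and -0.32 over IL-13, adjusted p = 0.387, edgeR).

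Genes of clathrin uptake and the early endosome, the route these receptors travel, were higher with IL-6 in most cases. When IL-6 was added to IL-4, 17 of 21 were called higher and 0 lower, against 20.7% and 18.7% of all genes tested, and the list's median log2 fold change was 0.66 against 0.04 over all genes. With IL-13/IL-6 over IL-13 the counts were also 17 higher and 0 lower, against 12.1% and 13.5% of all genes, with a median of 0.64 against 0.01. *Dab2*, a clathrin adaptor gene, rose by 2.04 over IL-4 and 1.68 over IL-13 (SEs 0.0853 and 0.0843). *Cltc*, the clathrin heavy chain, rose by 0.98 and 0.93, *Ap2m1*, a subunit of the adaptor complex AP-2, by 0.90 and 0.98, and *Picalm*, which shapes coated pits, by 1.12 and 1.41. *Clta*, a clathrin light chain, rose by 0.63 and 0.48, and *Snx2*, an endosomal sorting nexin, by 2.17 and 1.49. With IL-4 alone 13 of the 21 were higher and 3 lower than control, against 32.1% and 35.9% of all genes, a median of 0.39 against -0.05. With IL-13 12 were higher and 2 lower, against 29.0% and 31.1%.

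Other C-type lectin genes of macrophages moved in both directions. With IL-4/IL-6 over IL-4, 5 of 19 tested were higher and 10 lower, against 20.7% and 18.7% of all genes. With IL-13/IL-6 over IL-13 6 were higher and 7 lower, against 12.1% and 13.5%. *Cd209a*, *Cd209d*, *Cd209e*, *Clec4b1*, *Clec9a* and *Cd207* passed the filter on low counts through only some of the groups, so these counts describe the genes that passed and support nothing about the list. *Mgl2*, a galactose-type lectin gene, rose with IL-4 by 7.87 on the log2 scale (SE 0.185) and fell with IL-6 over IL-4 (-1.08, SE 0.120, adjusted p = 1.11e-06, edgeR). *Clec10a*, its close relative, rose with IL-4 by 2.76 and with IL-6 over IL-4 by a further 0.55 (adjusted p = 0.00113, edgeR). *Clec7a*, the beta-glucan receptor gene Dectin-1, fell with IL-4 (-0.31) and with IL-6 (-0.60 over IL-4 and -0.48 over IL-13). *Clec12a* fell with IL-6 (-2.84 over IL-4 and -1.02 over IL-13), as did *Clec4d* (-1.21 and -0.41) and *Clec4a2* (-1.67 and -0.53).

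Of the 15 genes of collagen uptake and pericellular proteolysis, partners of MRC2, 6 were higher and 6 lower when IL-6 was added to IL-4, and 5 higher and 6 lower with IL-13/IL-6 over IL-13, against 20.7% and 18.7%, and 12.1% and 13.5%, of all genes. *Mmp2* passed the filter on low counts mainly through control. *Ctsb*, the cathepsin B gene, fell with IL-4 (-0.57) and rose with IL-6 over IL-4 (0.24) and over IL-13 (0.28). *Ctss*, the cathepsin S gene, fell with IL-4 (-0.38) and with IL-6 over IL-4 (-0.54), and was not called for IL-6 over IL-13 (-0.22, adjusted p = 0.126, edgeR). *Ctsl*, another lysosomal protease gene, rose with IL-4 (1.13) and again with IL-6 over IL-4 (1.33) and over IL-13 (1.21). *Plau*, the urokinase gene, rose with IL-4 by 2.51 and with IL-13 by 3.12, and fell with IL-6 (-1.58 over IL-4 and -1.47 over IL-13). *Mmp12*, the macrophage elastase gene, rose with IL-4 by 0.85 and fell with IL-6 (-2.07 over IL-4 and -1.72 over IL-13). *Timp2* rose in each of these comparisons, by 0.92 with IL-4 and by 1.11 and 0.81 with IL-6.

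Among 15 receptor chains and transcription factors tied to *Mrc1*, 7 were higher and 4 lower when IL-6 was added to IL-4, and 7 higher and 2 lower with IL-13/IL-6 over IL-13, against 20.7% and 18.7%, and 12.1% and 13.5%, of all genes. *Il4ra*, the receptor chain shared by IL-4 and IL-13, had the pattern of neither *Mrc1* nor *Ly75*: it fell with IL-4 (-1.34) and with IL-13 (-0.82), then rose with IL-6 by 6.02 over IL-4 and by 4.94 over IL-13 (SEs 0.0872 and 0.0826). *Stat3*, the main transcription factor below IL-6, also fell with IL-4 (-1.20) and rose with IL-6 (1.72 over IL-4 and 1.63 over IL-13). *Il6st*, the signalling chain of the IL-6 receptor, rose with IL-6 by 1.14 over IL-4 and 0.58 over IL-13. *Jak1*, a kinase of both receptors, fell with IL-4 (-0.35) and rose with IL-6 over IL-4 (0.24). *Stat6*, the main factor below IL-4, was not called for IL-4 over control (0.03, adjusted p = 0.698, edgeR) and fell with IL-6 over IL-4 (-0.37). *Spi1*, the gene of PU.1, rose with IL-4 by 0.39 and was not called for IL-6 over IL-4 (0.04, adjusted p = 0.771, edgeR) or over IL-13 (0.09, adjusted p = 0.566, edgeR). The part of these receptor chains and factors in the level of *Mrc1* was not tested.

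**Figure D4:**
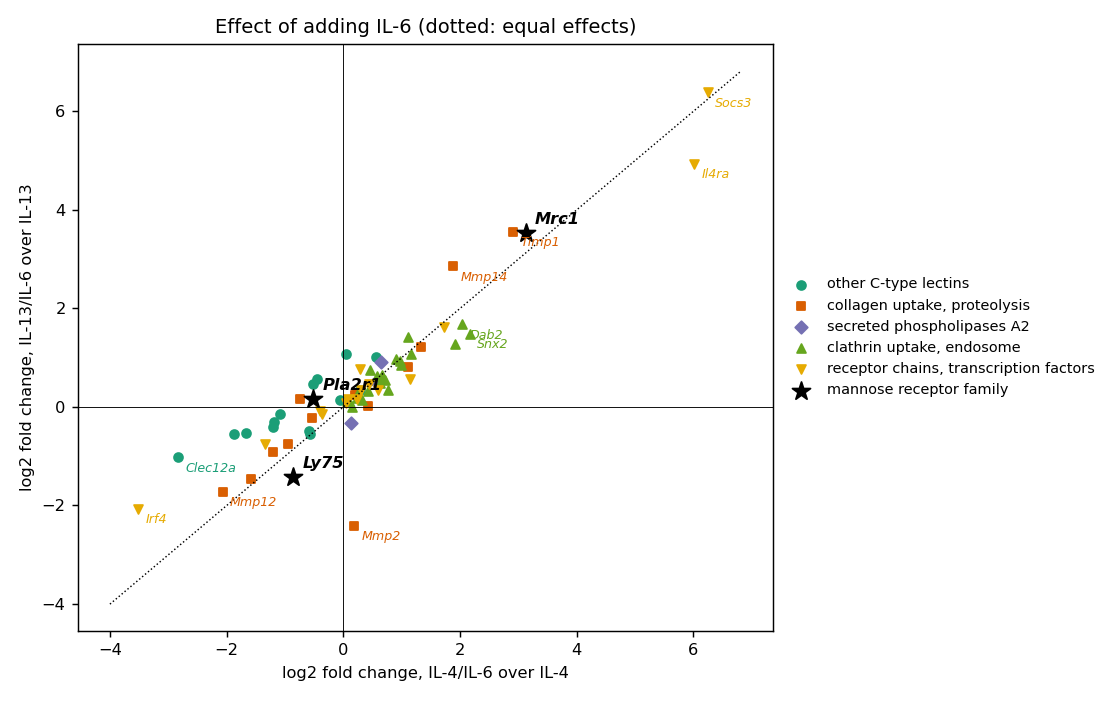
Log2 fold change for adding IL-6 to IL-4 (x axis) and to IL-13 (y axis), for the 3 tested members (stars) and for 67 of the 73 tested list genes, with genes named beyond 2 in either direction. 6 list genes with a mean under 0.1 CPM in a treated group are not drawn; Mrc1 stands at 3.13 and 3.53, and among the drawn genes only Il4ra, at 6.02 and 4.94, and Socs3 are higher on both axes.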

How the data were processed

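RNA-seq counts of 15 mouse BMDM libraries were used. The authors deposited raw counts per gene and, for 26080 genes, FPKM values. The submitters' notes name CASAVA, Bowtie2 2.2.3, HISAT2 2.1.0, TopHat2, DESeq2 and the build GRCm38, without their roles; the counting tool and its use of strand are not given in the sources used here. The deposited FPKM equalled counts over length and library total within a relative difference of 7.35e-07. Symbols were found for 53274 of 53465 identifiers.

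Genes were kept by edgeR's filterByExpr (minimum count 10), scaled by TMM and fitted together with edgeR 4.0.16 in R 4.3.3 (glmQLFit, glmQLFTest, two-sided, no covariate). P-values were adjusted by Benjamini-Hochberg over 13938 genes and called under 0.05. Levels are given as TMM-scaled CPM, and levels of different genes were compared by FPKM. DESeq2 1.42.0, other scalings and filters, a replicate block and left-out libraries were tried as alternatives. On simulated data for the addition of IL-6 to IL-4, 174 of 200 changed genes were recovered, with 11 other calls among 13506 tested.

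The members and lists were chosen with earlier results of these data known. List genes are named by level, as the 6 with the highest mean CPM of each list, patterns by the 5 nearest genes, and neighbours as the nearest 2 coding genes on each side. Genes named outside this rule were chosen after their values were seen. Replicate pairs differed by more than sampling noise (mean chi-square at least 2.60), so no library was merged. Endothelial markers were also listed: they summed to between 206.0 and 220.2 CPM in control and between 72.0 and 131.1 in the treated libraries. The allele of the reporter line is not reported here.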

Additional observations from a re-analysis of the deposited data

Results flagged for a closer look

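The genes below, from the 6 named of each list, were picked out because the test of the difference itself, the effect of IL-6 with IL-4 minus its effect with IL-13, passed an adjusted p of 0.05 (edgeR, 7.64% of genes called); no member of the family did. Among the C-type lectin genes the difference was -1.82 on the log2 scale for *Clec12a* (adjusted p = 1.85e-07), -1.14 for *Clec4a2* (adjusted p = 4.65e-05), -0.94 for *Mgl2* (adjusted p = 0.00161) and -0.81 for *Clec4d* (adjusted p = 0.0139). For *Mgl2* the fall with IL-6 was called with IL-4 (-1.08) and not with IL-13 (-0.14, adjusted p = 0.449). The difference had the opposite sign for *Il4ra* at 1.08 (adjusted p = 3.21e-06), *Snx2* at 0.68 (adjusted p = 6.57e-05) and *Timp2* at 0.3 (adjusted p = 0.0168), which IL-6 raised more with IL-4. The doses of IL-4 and IL-13 are not known to match, and their part in these differences was not tested. Over the whole lists, 8 of 19 C-type lectin genes were called with a lower IL-6 effect in the IL-4 arm and 0 with a higher one, 2 of 21 clathrin and endosome genes were higher, 2 of 15 collagen and proteolysis genes higher and 1 lower, and 1 of 15 receptor chain and transcription factor genes higher and 2 lower, against 3.22% higher and 4.42% lower over all genes. The lectin count includes genes that passed the filter on low counts through only some groups, so it supports nothing about that list.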

How the results depend on the processing

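All calls of *Mrc1* in the 8 comparisons of groups, and all calls of *Ly75* over control and for IL-13/IL-6 over IL-13, kept their direction and their call under every alternative that could be run. Values that did not are as follows. The interaction of *Mrc1* passed with no filter on low counts (-0.44), and ranged from -0.52 to -0.28 with single libraries left out. For *Ly75*, IL-4/IL-6 over IL-4 passed under DESeq2 (-0.87), with no filter (-0.88) and in the fit of 9 libraries (-0.90), with -1.18 to -0.74 over left-out libraries. Its IL-4/IL-6 over IL-13/IL-6 turned to -0.04 without IL-4/IL-6 replicate 3 and to -0.21 without IL-13/IL-6 replicate 1, within -0.21 to 0.62. *Mrc2*, IL-13 over control, ranged from -5.61 to -3.28 over left-out libraries. For *Pla2r1*, IL-4/IL-6 over control turned to -0.40 without IL-4/IL-6 replicate 3 (-0.41 as a ratio of means), within -0.40 to 0.53 (-0.41 to 0.51 as a ratio of means). IL-13/IL-6 over IL-13 turned to -0.09 and -0.52, within -0.52 to 0.45, IL-13/IL-6 over control ranged from 0.48 to 1.45, and IL-4/IL-6 over IL-13/IL-6 from -1.54 to -0.24. By FPKM, which is not TMM-scaled, *Mrc1* in IL-4/IL-6 stood 5.33 above control on the log2 scale. Counts of genes called for IL-4 over IL-13 went from 719 higher to 1153 with no filter and to between 444 and 1292 over left-out libraries, and from 1060 lower to between 644 and 1623; those called higher in the interaction went from 449 to between 293 and 607. The cause of these shifts was not tested.

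No *Pla2r1* value exists under the filter of 1 CPM in 3 libraries, which removes it. The replicate numbers did not pair the libraries: 3 of 30 same-number pairs had a correlation of deviations over 0.1 (range -0.28 to 0.16). With the replicate block, *Mrc1* over IL-4 was 3.13 and over IL-13 3.53, *Ly75* was -0.86 and -1.44, and the block changed no call of a member. The fit without the control libraries changed no call of *Mrc1*, *Pla2r1* or *Ly75* in the 5 comparisons it could give. Depth limits *Mrc2* and *Pla2r1*, at 24 counts or fewer per library.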
